A study of Mus musculus with 3 samples.

Results

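The 10 genes described here are markers of astrocytes or of reactive glia: Gfap, Vim, Slc1a2, Slc1a3, Aqp4, Gja1, Aldh1l1, S100b, Chil1 and Scrg1. They are 10 of 21887 protein-coding genes of the mouse gene table used. On mm10 Gfap lies at chr11:102887336-102897200, Vim at chr2:13574311-13582826, Slc1a2 at chr2:102658239-102790784, Slc1a3 at chr15:8634124-8710807, Aqp4 at chr18:15389394-15410982, Gja1 at chr10:56377300-56390419, Aldh1l1 at chr6:90550768-90599171, S100b at chr10:76253836-76261319, Chil1 at chr1:134182156-134190031 and Scrg1 at chr8:57455882-57479360. Their chromatin was followed through the peaks that overlap each gene or the 10 kb on either side, with peaks within 1000 bp of an end of the gene kept apart from all others. These windows held 75 of 107627 peaks in the Control library, 43 of 57616 in the PDGFB-WT library and 93 of 127094 in the PDGFB-NLS library. Gfap and Scrg1 were put on the list because their ratios in the PDGFB libraries were high, so their ratios are given as a description only.

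The libraries are single-cell ATAC-seq, which counts where a transposase cuts open chromatin in single nuclei, of mouse glioma samples made by in utero electroporation with the piggyBac transposon. There is 1 library per group: 1 tumor library overexpressed PDGFB-WT, 1 overexpressed PDGFB-NLS, and 1 is the Control. All 3, Control included, carry the tissue label glioma, but the deposited Control data are named Normal, so whether the Control is tumor or other tissue is not settled here. PDGFB is a growth factor that signals through PDGF receptors on glial precursors. The labels do not spell out NLS, and the sources used here give neither what the Control sample carried nor the promoter of the PDGFB constructs, nor the strain, age and number of the mice. With 1 library per group no difference below has a replicate check and none was tested, and every interval is an exact 95% interval that covers counting error only.

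Depth differed between the libraries. After barcodes under 200 counts were left out, 2226 barcodes remained in Control (median 13054 counts), 7441 in PDGFB-WT (median 821) and 10996 in PDGFB-NLS (median 2767.5). The totals were 31588784, 7008951 and 31177621 counts. Between 22 and 118 barcodes were shared by a pair of libraries. Levels are in CPM, counts per 1000000 counts in the 47450 regions called in all 3 libraries. A region that was not called in a library has an unknown count there, not a count of 0.

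Astrocytes take up glutamate and potassium, move water at the vessel wall and are coupled to each other by gap junctions. In injured or tumor-bearing brain they become reactive, enlarge their intermediate filament skeleton and switch on secreted proteins. Transcription of Gfap is known to need STAT3 and NFI factors in this lineage, and reactive glia also use AP-1 factors. Several of these genes are not confined to astrocytes: Vim is a filament of endothelial and mesenchymal cells too, S100b is made by oligodendrocyte lineage cells, and Slc1a3 and Scrg1 are found in progenitors.

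The promoters below are shown because a peak lay over each, and each for a reason given next. The Chil1, Slc1a3 and Vim windows lay under a peak in all libraries. The Gfap start had a called peak in both PDGFB libraries and none in Control. Chil1 had the highest ratio in PDGFB-WT after Scrg1 and Gfap, Slc1a3 held regions led by different cell classes, and Vim had the lowest ratio in PDGFB-WT. Each window runs from 250 bases before to 50 bases after the RefSeq start (GRCm38.p6, the assembly of mm10), on the strand of the gene. Capitals mark matches to STAT (TTCNNNGAA), AP-1 (TGANTCA), the full NFI palindrome, the short NFI site (TTGGCA) or SOX (ACAAAG), searched on both strands.
Gfap, chr11:102897151-102897450, minus strand: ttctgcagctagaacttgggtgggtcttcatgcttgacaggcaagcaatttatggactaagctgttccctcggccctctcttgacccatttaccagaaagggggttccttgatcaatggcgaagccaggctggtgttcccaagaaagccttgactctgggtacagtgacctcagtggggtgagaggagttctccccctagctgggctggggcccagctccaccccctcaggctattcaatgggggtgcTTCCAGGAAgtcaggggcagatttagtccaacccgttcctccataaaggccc
Chil1, chr1:134181906-134182205, plus strand: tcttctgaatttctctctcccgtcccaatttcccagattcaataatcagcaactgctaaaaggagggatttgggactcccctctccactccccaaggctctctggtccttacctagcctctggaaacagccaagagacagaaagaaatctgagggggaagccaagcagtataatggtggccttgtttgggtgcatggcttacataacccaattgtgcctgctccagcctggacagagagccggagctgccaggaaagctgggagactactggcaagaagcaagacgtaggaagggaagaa
Slc1a3, chr15:8710758-8711057, minus strand: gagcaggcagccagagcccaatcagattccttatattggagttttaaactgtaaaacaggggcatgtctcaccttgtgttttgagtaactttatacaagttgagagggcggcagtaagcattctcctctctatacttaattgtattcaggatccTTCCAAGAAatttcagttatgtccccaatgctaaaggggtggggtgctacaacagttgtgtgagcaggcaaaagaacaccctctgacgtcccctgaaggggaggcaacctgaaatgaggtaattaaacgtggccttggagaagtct
Vim, chr2:13574061-13574360, plus strand: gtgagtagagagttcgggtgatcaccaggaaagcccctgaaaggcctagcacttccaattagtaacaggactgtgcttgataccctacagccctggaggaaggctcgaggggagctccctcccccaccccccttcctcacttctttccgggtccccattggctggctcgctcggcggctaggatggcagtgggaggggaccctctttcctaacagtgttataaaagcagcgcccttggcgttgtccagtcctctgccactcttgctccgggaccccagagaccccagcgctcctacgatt

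Promoters were listed for 8 of the 10 members, and Aqp4 and Scrg1 were not listed. Gfap and Slc1a3 each held 1 STAT match, Gja1 held 1 AP-1 match and S100b 1 short NFI site. The Gfap match, TTCCAGGAA, spans the start itself, at bases 249 to 257 of the window. The Slc1a3 match, TTCCAAGAA, ends 88 bases before the start. A STAT match was held by 8.30% of all 32851 promoters listed, an AP-1 match by 7.81%, the short NFI site by 14.1%, the SOX motif by 18.7% and the full NFI palindrome by 0.0365%. A match is only a run of letters, and absence of one says nothing about a factor. The member promoters were mostly poor in CG pairs: 5 of the 8 held 3 or fewer, where the median promoter held 7 and the lower quartile 3. One of the 5 is the listed Slc1a2 window (chr2:102706188-102706487), with 1 CG pair. It lies inside the gene, under no peak, and is not at the Slc1a2 end read below.

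Each gene was then read at the end with the higher mean level. In PDGFB-WT all 8 comparable member ends lay above the median of all genes relative to Control, and in PDGFB-NLS 8 of 9 did. Gfap and Scrg1, which were chosen for this, stood far above the others, Chil1 came next in both comparisons, and Vim and Gja1 lay at or near the median in PDGFB-NLS. Ratios are log2 ratios of CPM minus the median of all compared protein-coding genes, which was -0.16 and -0.02 for the ratios of PDGFB-WT and PDGFB-NLS to Control, and 0.13 for the ratio of PDGFB-NLS to PDGFB-WT. A gene was compared where both libraries had a peak at that end and at least 100 counts. The comparisons share libraries, so they are not independent of each other.

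Gfap encodes the intermediate filament that defines astrocytes. Its end, at the start of the gene on chromosome 11, measured 5.55 CPM in Control, 40.2 CPM in PDGFB-WT and 32.3 CPM in PDGFB-NLS. Both PDGFB libraries were thus high and Control low. The ratio to Control was 3.01 (2.61 to 3.45) for PDGFB-WT and 2.56 (2.20 to 2.94) for PDGFB-NLS, ranking 3 of 10733 and 1 of 13365 genes. These sums hold 2 peaks in each PDGFB library and 1 in Control, where the other peak was not called and its count is unknown. The intervals do not cover that. On the peak called in all 3 libraries the ratios, set against regions near gene ends, were 2.39 and 2.02. Vim, the filament of reactive astrocytes, radial glia and vessel cells, measured 31.0, 34.5 and 31.6 CPM in Control, PDGFB-WT and PDGFB-NLS, the narrowest spread of the members seen in all 3 libraries. Its ratios were 0.32 (0.12 to 0.70) and 0.04 (-0.09 to 0.31), and both fell below the median, to -0.20 and -0.40, when every barcode was given equal weight.

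Of the glutamate transporters, Slc1a2 (GLT-1) measured 29.1 CPM in Control, 43.9 CPM in PDGFB-WT and 34.8 CPM in PDGFB-NLS. Slc1a3 (GLAST) measured 13.8, 21.6 and 15 CPM in the same order. For both genes PDGFB-WT was the highest library. PDGFB-NLS was intermediate for Slc1a2, and Control and PDGFB-NLS lay close together for Slc1a3. Slc1a2 had a ratio of 0.75 (0.47 to 1.02) in PDGFB-WT and 0.28 (0.08 to 0.48) in PDGFB-NLS. Slc1a3 had a ratio of 0.80 (0.33 to 1.12) in PDGFB-WT and 0.13 (-0.20 to 0.39) in PDGFB-NLS.

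Aqp4 encodes the water channel of astrocyte endfeet and Gja1 the main astrocyte gap junction protein, connexin 43. Aqp4 had no peak within 1000 bp of either end in any library, so its window is described by other peaks. Gja1 measured 6.71 CPM in Control and 6.35 CPM in PDGFB-NLS, with a ratio of -0.06 (-0.53 to 0.37), and no end peak was called in PDGFB-WT. Aldh1l1, a folate enzyme used as a marker of all astrocytes, measured 13.3 CPM in Control, 16.9 CPM in PDGFB-WT and 17.5 CPM in PDGFB-NLS. Both PDGFB libraries were above Control at this end, with ratios of 0.51 (0.04 to 0.92) and 0.41 (0.11 to 0.69). The far end of Aldh1l1 measured 10.2 CPM in Control, 19.7 CPM in PDGFB-WT and 10.0 CPM in PDGFB-NLS, so only PDGFB-WT was above Control there.

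S100b, a calcium-binding protein of astrocytes and oligodendrocyte lineage cells, measured 12.1, 19.4 and 13.8 CPM in Control, PDGFB-WT and PDGFB-NLS. Its ratio was 0.84 (0.43 to 1.27) in PDGFB-WT and 0.20 (-0.12 to 0.51) in PDGFB-NLS. Chil1 (YKL-40), a secreted chitinase-like protein of reactive astrocytes, measured 9.58, 21.6 and 14.0 CPM. It was lowest in Control, intermediate in PDGFB-NLS and highest in PDGFB-WT, with ratios of 1.33 (0.99 to 1.83) in PDGFB-WT and 0.56 (0.26 to 0.94) in PDGFB-NLS. With peaks near ends of other genes left out its PDGFB-NLS ratio was -0.08, from its far end. Scrg1, a small secreted glial protein first found in scrapie-infected brain, measured 4.0 CPM in Control, 37.6 CPM in PDGFB-WT and 20.4 CPM in PDGFB-NLS. Its ratio of 3.39 (2.94 to 3.88) in PDGFB-WT ranked 1 of 10733, and its ratio of 2.37 (1.93 to 2.80) in PDGFB-NLS ranked 3 of 13365. As for Gfap, these sums hold 2 peaks in each PDGFB library and 1 in Control. The ratios on the Scrg1 peak called in all 3 libraries, given below, were lower.

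**Figure D1:**
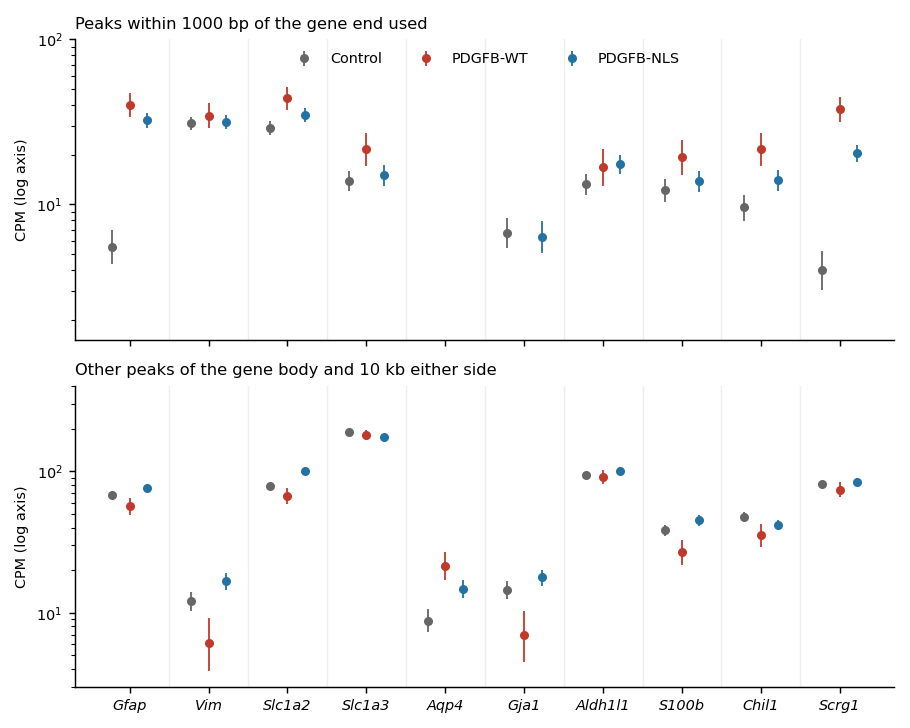
Level of each member in each library, in CPM on a log axis, at the gene end used (top) and over the other peaks of the gene and 10 kb either side (bottom). Points are the single library of each group, bars are exact 95% intervals for counting error, and a missing point means that no peak was called. Gfap and Scrg1 at their ends lie between 20.4 and 40.2 CPM in the PDGFB libraries against 5.55 and 4.0 CPM in Control. Both ends sum 2 peaks in each PDGFB library and 1 in Control.

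Counted together, 3 of 8 compared members were at least 2-fold higher in PDGFB-WT than in Control, against 2.32% of all compared genes, and none was 2-fold lower, against 0.354%. These were Gfap, Scrg1 and Chil1, and with peaks near an end of another gene left out 1 of the 3, Scrg1, was still compared and past 2-fold. All 8 intervals lay above the all-gene median, against 18.3% of genes. In PDGFB-NLS the count was 2 of 9, Gfap and Scrg1, against 1.35% of genes, and 5 of 9 intervals lay above the median, against 17.5%. Gfap and Scrg1 were chosen on this contrast. Without them the medians were 0.78 in PDGFB-WT and 0.20 in PDGFB-NLS, against 0.82 and 0.28 with them and 0 for all genes. Gene ends at 10 to 25 CPM, where 6 of the 8 members lay, had a median of 0.25 in PDGFB-WT, and 12.2% of them were 2-fold higher than in Control. An end with fewer than 100 counts in the shallow PDGFB-WT library was not compared. Gfap, Scrg1, Chil1, S100b, Aldh1l1 and Slc1a3 (4.0 to 13.8 CPM in Control) would not have reached that minimum in PDGFB-WT at their Control level. Scrg1 was also close to it in Control, with 103 counts. The minimum therefore touches the ranks of Gfap and Scrg1, the medians, the 8 of 8 count and the share past 2-fold. Nothing particular to the members is read from them.

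Relative to the all-gene median, the 8 compared ends were lower in PDGFB-NLS than in PDGFB-WT, with a median of -0.54. The Aldh1l1 level itself, at the end used, was nonetheless 17.5 CPM in PDGFB-NLS and 16.9 CPM in PDGFB-WT. At its far end it was 10.0 and 19.7 CPM. An end had to reach 100 counts in the shallow PDGFB-WT library to be compared, which favours ends that are high there. All compared gene ends at 10 to 25 CPM, where 4 of the 8 lay, had a median of -0.10. Those at 25 to 50 CPM, where the other 4 lay, had a median of 0.05. In 6 of the 8 the interval lay below the all-gene median, against 15.2% of all genes. Scrg1 had the lowest ratio, -1.01 (-1.34 to -0.73), and was the only member past 2-fold lower, against 0.512% of genes. Gfap and Scrg1 were chosen for high ratios in the PDGFB libraries, and this contrast uses the same values. Nothing is therefore read from these counts, which include both, or from the place of Scrg1. The Scrg1 ratio stayed past 2-fold in 8 of 13 alternative settings and fell short in the others, as at -0.88 without centring. Chil1 followed at -0.76 (-1.19 to -0.40), then Slc1a3 at -0.65 (-1.01 to -0.23) and S100b at -0.62 (-1.05 to -0.22). Aldh1l1 at -0.08 (-0.50 to 0.36) and Vim at -0.26 (-0.58 to 0.00) had intervals that reached the median. Aldh1l1 turned above 0 in 3 of 13 alternative settings, up to 0.24 with equal weight per barcode.

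**Figure D2:**
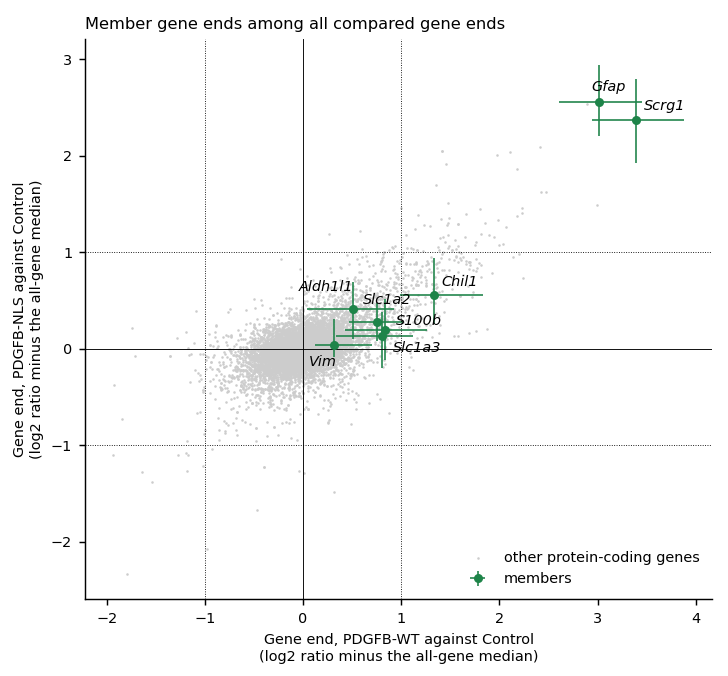
Log2 ratio at the gene end minus the all-gene median, PDGFB-WT against Control (x axis) and PDGFB-NLS against Control (y axis), for 10722 genes compared in both; green points with 95% counting intervals are the 8 members compared in both, and dotted lines mark 2-fold. Gfap and Scrg1 lie in the upper right corner and Chil1 alone of the others passes 2-fold on the x axis; both axes use the same Control library, so the slope of the cloud is no finding.

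The Gfap and Scrg1 ends were each made of 2 peaks, and 1 of each pair was not called in Control. At Gfap, a peak of 866 bp over the start was called in PDGFB-WT at 12.7 CPM and in PDGFB-NLS at 9.81 CPM, but not in Control. The second Gfap peak, centred 1400 bp outside the start (chr11:102898125-102899075), was called in all 3 libraries at 5.55, 27.4 and 22.5 CPM in Control, PDGFB-WT and PDGFB-NLS. At Scrg1, the peak over the end of the gene (chr8:57455530-57456449) measured 4.0, 19.4 and 11.6 CPM, and a peak 1441 bp inside that end measured 18.2 CPM in PDGFB-WT and 8.83 CPM in PDGFB-NLS with no call in Control. The part of each end that all libraries called was thus also high in both PDGFB libraries. For these peaks ratios are given relative to the median of all regions near gene ends called in all 3 libraries. They were 2.39 (1.93 to 2.85) and 2.02 (1.63 to 2.40) at Gfap and 2.37 (1.84 to 2.91) and 1.54 (1.03 to 1.96) at Scrg1, for PDGFB-WT and PDGFB-NLS. End regions of 5 members lay near an end of another gene. The Gfap peaks lie within 1000 bp of an end of the predicted genes Gm34560 and Gm39395 as well, and the counts cannot be divided between them. The same holds for Slc1a2 and LOC115489466, Slc1a3 and Gm31340, Chil1 and Gm46158, and the far end of Aldh1l1 and Gm15756.

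Merging the peaks of the libraries gave 103 regions in the windows of the 10 members, of which 16 were at a member's end, 52 inside a gene, 22 in a flank and 13 at the end of another gene. All 3 libraries called 37 of the 103, beside 47450 of all 147229 merged regions. Control and PDGFB-NLS without PDGFB-WT called 29, PDGFB-NLS alone 22 and Control alone 9. Both PDGFB libraries without Control called 5. These splits were not counted over all regions, so nothing particular to the members is read from them. Slc1a3 and Slc1a2 had the most regions, 25 and 24, and Vim the fewest, 4. The low number in PDGFB-WT goes with its depth, and what depth contributed to it was not tested.

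Away from the gene ends the members did not stand apart. The 10 end regions called in all libraries were all above the median in PDGFB-WT, with a median ratio of 0.75, and 8 of 10 in PDGFB-NLS, with a median of 0.22. Together with the 6 regions at ends of other genes, 4 of 16 were 2-fold higher in PDGFB-WT, against 8.98% of all regions near gene ends, and 2 of 16 in PDGFB-NLS, against 3.19%. The Gfap and Scrg1 regions, chosen for their ratios, are 2 of those 4 and both of the PDGFB-NLS ones, so nothing is read from these counts. The others in PDGFB-WT were the Chil1 end at 1.26 and the far end of Aldh1l1 at 1.04. The 21 regions inside genes or in flanks, set against all such regions over 1000 bp from any gene end, were above the median in 12 cases in PDGFB-WT, with a median ratio of 0.02, and in 10 cases in PDGFB-NLS, with a median of -0.07. One of the 21 was 2-fold higher in PDGFB-WT, against 15.6% of all such regions, and none in PDGFB-NLS, against 7.01%. None was 2-fold lower, against 7.88% and 1.59%.

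The region that was 2-fold higher lies outside the Slc1a2 gene (chr2:102648884-102649863) and measured 5.78 CPM in Control, 17.2 CPM in PDGFB-WT and 8.79 CPM in PDGFB-NLS, with ratios of 1.22 (0.74 to 1.75) and 0.53 (0.08 to 0.95). The lowest region in PDGFB-WT lies 6660 bp outside the start of Slc1a3 (chr15:8716858-8718077) and measured 14.9, 10.2 and 10.9 CPM, with ratios of -0.89 (-1.47 to -0.39) and -0.52 (-0.87 to -0.22). The lowest in PDGFB-NLS lies inside Slc1a3 (chr15:8680802-8681720) and measured 17.9, 13.6 and 10.8 CPM, with ratios of -0.74 (-1.18 to -0.25) and -0.81 (-1.13 to -0.51). So Slc1a3, whose end was higher in PDGFB-WT, also held the lowest of the regions called in all 3 libraries. A region at the end of another gene in the Slc1a2 window, called in Control and PDGFB-NLS, was lower still in PDGFB-NLS, at -0.96 (-1.48 to -0.39). Aqp4 is seen only away from its ends. Its other peaks summed to 8.81 CPM in Control, 21.5 CPM in PDGFB-WT and 14.7 CPM in PDGFB-NLS, over 1.81, 1.82 and 3.19 kb of peaks. It was the only member whose other peaks were 2-fold higher in PDGFB-WT, at 1.53 (1.09 to 1.96), against 5.73% of genes, and none was 2-fold lower, against 3.3%. That sum includes a region of 6.37 CPM that was not called in Control. The 1 Aqp4 region called in all 3 libraries measured 6.87, 15.1 and 8.06 CPM, with a ratio of 0.79 (0.25 to 1.28) in PDGFB-WT. In PDGFB-NLS none was 2-fold higher, against 3.78%, and the Aqp4 peaks stood at 0.70 (0.36 to 1.05).

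Over all members the other peaks had medians of 0.06 in PDGFB-WT, over 8 genes, and 0.16 in PDGFB-NLS, over 10. Of the 8, 3 had intervals above the all-gene median, against 29% of genes, and of the 10, 4 did, against 28.1%. Slc1a2 measured 78.3, 66.5 and 100 CPM in Control, PDGFB-WT and PDGFB-NLS, with ratios of 0.01 (-0.24 to 0.18) and 0.31 (0.20 to 0.44). Vim measured 12.1, 6.08 and 16.6 CPM and Gja1 14.5, 6.97 and 17.7 CPM, and neither had the 100 counts in PDGFB-WT that a comparison needed. These sums move with how much was called in each library. For Gfap, the other peaks differed little, at 67.8, 56.5 and 76.1 CPM, and the far higher ratios at its start stood alone in its window.

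**Figure D3:**
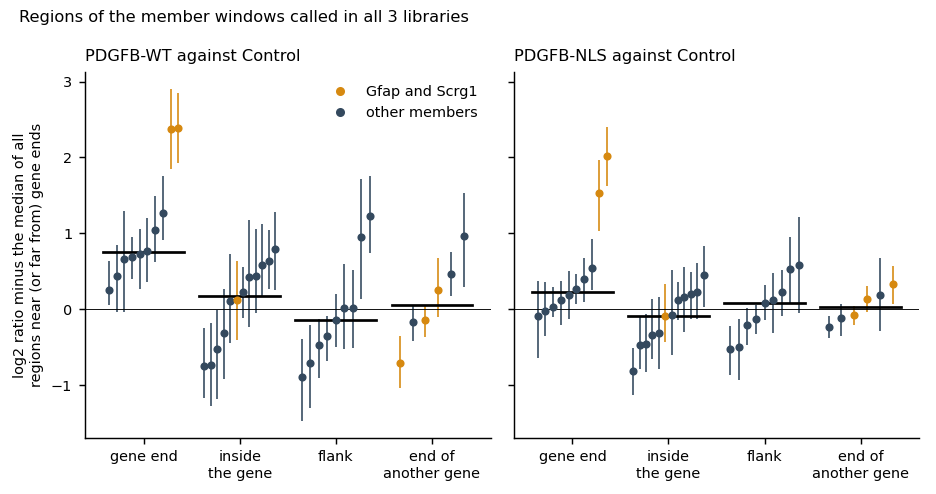
Log2 ratios to Control of the 37 regions called in all 3 libraries, grouped by place, for PDGFB-WT (left) and PDGFB-NLS (right); regions at gene ends are set against the median of all regions near gene ends and the others against that of all regions over 1000 bp away, bars are 95% counting intervals and black lines group medians. In PDGFB-WT the 10 regions at member ends all lie above 0, with the Gfap and Scrg1 regions (orange) at 2.39 and 2.37, while regions inside genes and in flanks lie on both sides.

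Because the libraries are mixtures, a higher level can come from more nuclei of a type or from more open chromatin per nucleus, and in the whole libraries these cannot be told apart. Barcodes were therefore clustered in each library with all member peaks left out, and clusters were named from marker lists that hold no member. Astrocyte-like clusters held 475 Control, 1304 PDGFB-WT and 2857 PDGFB-NLS barcodes (the last in 2 clusters), or 18.4%, 23% and 21.2% of the counts. OPC-like clusters, named for oligodendrocyte precursor markers, held 2.47%, 30.6% and 15.5% of the counts. In PDGFB-WT this cluster also had 15 of 16 oligodendrocyte markers above the other clusters, with a median log2 fold of 1.09. The medians were -0.63 in Control (5 of 18 above) and -0.11 in PDGFB-NLS (6 of 18 above). The OPC-like class is therefore not alike across libraries, which limits every comparison of it below. Microglia or macrophage-like clusters held 36.1%, 31.0% and 32.6%. Unnamed clusters held 15.4% of the counts in PDGFB-WT, 1.96% in Control and none in PDGFB-NLS, and oligodendrocyte-like and endothelial-like clusters were found only in the other pair of libraries. The Control astrocyte-like cluster had as many neural progenitor markers as astrocyte markers among its 10 leading genes, 3 of each.

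Summed over the 10 windows, astrocyte-like barcodes held the highest level of the named classes in each library: 924 CPM (887 to 964) in Control, 1006 CPM (938 to 1077) in PDGFB-WT and 919 CPM (883 to 955) in PDGFB-NLS. An unnamed cluster of PDGFB-WT held 1126 CPM. Its best list was the astrocyte one, with 29 of 30 markers above the other clusters and 4 among its 10 leading genes, but the median log2 fold of 0.90 was below the 1 that a name needed. Microglia or macrophage-like barcodes held 624, 626 and 618 CPM. This sum does not speak for each member, and the members divide by class. In the astrocyte-like barcodes of Control the Vim and Scrg1 windows lay below the other clusters, at -0.70 and -0.32 in log2. All other windows lay above, from 0.06 for Chil1 to 2.76 for Slc1a2 and 6.01 for Aqp4. The Gfap window measured 85.1 CPM (73.9 to 97.5) there and 121 CPM (85.9 to 165) in OPC-like barcodes of Control. The Aqp4 region inside the gene was highest among these classes in astrocyte-like barcodes, at 35, 39.3 and 30.2 CPM in Control, PDGFB-WT and PDGFB-NLS, against 0, 7.74 and 3.16 CPM in OPC-like barcodes and 0.21, 2.39 and 1.87 CPM in microglia or macrophage-like ones. Astrocyte-like barcodes held 93.8%, 59.8% and 79.3% of its counts, and the same unnamed PDGFB-WT cluster held 15.7% of them there, at 35.5 CPM. The 0 in the few OPC-like barcodes of Control allows up to 9.14 CPM. The Slc1a2 end measured 132, 92.8 and 103 CPM in astrocyte-like barcodes and 37.6, 41.6 and 38.4 CPM in OPC-like ones.

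Other members were led by other classes. The Vim end was highest in endothelial-like barcodes, at 99.6 CPM in Control and 79.4 CPM in PDGFB-NLS, against 20.5 and 30.6 CPM in astrocyte-like ones. The S100b end was highest in OPC-like barcodes, at 31.4, 38.2 and 34.5 CPM, with 28.8 and 23.5 CPM in the oligodendrocyte-like barcodes of Control and PDGFB-NLS. Chil1 divided within its own window: its end measured 31.2, 34.2 and 27.7 CPM in astrocyte-like barcodes, 48.6, 26.1 and 25.5 CPM in OPC-like ones and 0.86, 3.35 and 1.5 CPM in microglia or macrophage-like ones, whereas a flank region 6512 bp away measured 18.8, 14.2 and 20.2 CPM against 70.9, 71.3 and 69.2 CPM. Slc1a3 divided in the same way. The region inside the gene with the lowest ratio in PDGFB-NLS drew 92.6%, 77.2% and 91.7% of its counts from microglia or macrophage-like barcodes, and the flank region with the lowest ratio in PDGFB-WT drew 84.1% of its Control counts from oligodendrocyte-like ones.

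The Gfap peak outside the start was read within classes. In astrocyte-like barcodes it measured 21.3 CPM (15.9 to 28.0) in Control, 60.6 CPM (44.7 to 80.3) in PDGFB-WT and 63.5 CPM (54.2 to 73.8) in PDGFB-NLS. Both PDGFB libraries lay above Control within this class, by 2.84-fold (1.87 to 4.29) and 2.98-fold (2.16 to 4.15). Such a 2-fold rise was seen in 5.1% of regions near gene ends within astrocyte-like barcodes for PDGFB-WT and 1.94% for PDGFB-NLS. Gfap was chosen for high ratios in these same libraries, so nothing is read from its place beside these shares. In OPC-like barcodes the peak measured 25.1 CPM (10.8 to 49.5) in Control, 22.7 CPM (14.6 to 33.8) in PDGFB-WT and 41.3 CPM (32.8 to 51.4) in PDGFB-NLS, with overlapping Control and PDGFB intervals, on 8 fragments in Control. In microglia or macrophage-like barcodes it was at 0.64, 3.83 and 2.50 CPM. The peak over the Gfap start, in the libraries that called it, measured 29.7 and 35.6 CPM in astrocyte-like barcodes and 4.35 and 6.05 CPM in OPC-like ones.

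The Scrg1 pair of peaks differed by class. The peak over the end was highest in OPC-like barcodes, at 26.7 CPM (12.8 to 49.0) in Control, 41.1 CPM (30.1 to 54.8) in PDGFB-WT and 36.1 CPM (28.2 to 45.4) in PDGFB-NLS, and the 3 intervals overlapped. Within OPC-like barcodes its ratio to Control was 1.54-fold (0.70 to 3.12) in PDGFB-WT and 1.35-fold (0.61 to 2.59) in PDGFB-NLS, which holds no difference beyond counting error. In astrocyte-like barcodes it measured 7.6, 16.8 and 11.5 CPM. The peak inside the end was instead higher in astrocyte-like barcodes, at 38.7 CPM in PDGFB-WT and 22.1 CPM in PDGFB-NLS, than in OPC-like ones, at 16 and 12.6 CPM. Beside the Scrg1 ratio of the whole libraries stands the share of OPC-like counts, 2.47% in Control against 30.6% and 15.5%, and its part in that ratio was not tested. In PDGFB-WT the OPC-like class also carried oligodendrocyte markers.

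Within astrocyte-like barcodes 2 of 9 member regions compared were at least 2-fold higher in PDGFB-WT, the Gfap peak and the Scrg1 peak over the end, at 2.21-fold (1.03 to 4.67), and 1 of 9 in PDGFB-NLS, the Gfap peak. These counts stand beside 5.1% and 1.94% of all regions near gene ends within the class, and nothing is read from them, since Gfap and Scrg1 were chosen for high ratios. The other members differed less, in both directions. The Slc1a2 end, higher in the whole PDGFB libraries, was lower in them within this class, by 0.70-fold (0.54 to 0.90) in PDGFB-WT and 0.78-fold (0.66 to 0.92) in PDGFB-NLS relative to Control. The Vim end was higher, by 1.57-fold (1.07 to 2.82) and 1.49-fold (1.11 to 2.30). For the Chil1 end the folds were 1.09 (0.68 to 1.73) and 0.89 (0.65 to 1.28), for S100b 1.10 (0.58 to 1.98) and 0.79 (0.48 to 1.20), and for the Slc1a3 end 1.51 (0.88 to 2.28) and 1.19 (0.83 to 1.68). Aldh1l1 stood at 0.68-fold (0.42 to 1.04) and 1.07-fold (0.84 to 1.40). At the ends used, the intervals of those 4 genes all included 1, so no difference was detectable there at this depth. The far end of Chil1, with 5 to 8 fragments per library in this class, stood at 5.43-fold (1.39 to 18.7) in PDGFB-WT and 1.01-fold (0.28 to 4.49) in PDGFB-NLS. The far end of Aldh1l1 stood at 1.51-fold (0.97 to 2.38) in PDGFB-WT, on the other side of 1 from the end used, and at 1.01-fold (0.70 to 1.43) in PDGFB-NLS. These folds are of CPM within the class, whose median over regions near gene ends differed from 0 by -0.07 and 0.02 in log2, and the classes were rebuilt separately in each library.

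**Figure D4:**
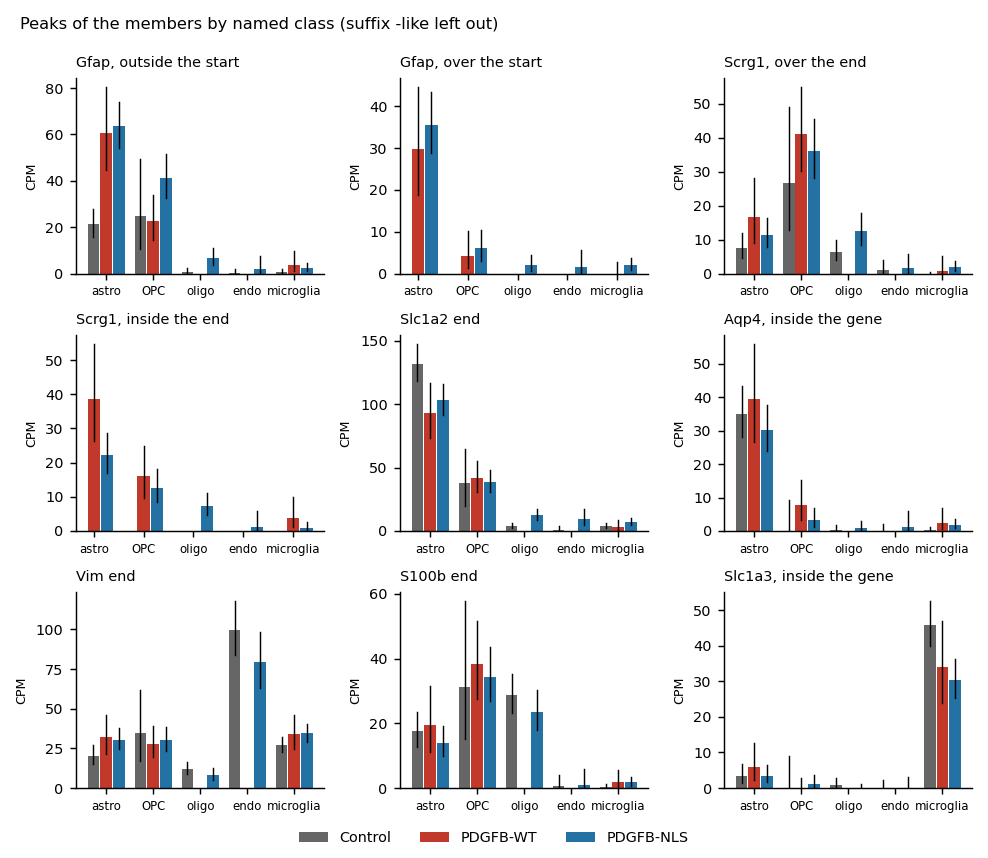
Level in CPM of 9 peaks of the member windows by named class (astrocyte-like, OPC-like, oligodendrocyte-like, endothelial-like, microglia or macrophage-like) and library; bars are the single library, lines are exact 95% counting intervals, and a missing bar means that the peak was not called or the class not found in that library. Within the astrocyte-like class the Gfap peak outside the start measures 21.3 CPM in Control and 60.6 and 63.5 CPM in PDGFB-WT and PDGFB-NLS. The Slc1a2 end there measures 132, 92.8 and 103 CPM in the same order. Gfap was chosen for its high ratios.

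Counted by barcode, and thinned to 1000 counts each, 0.780% (0.447 to 1.26) of 2051 Control barcodes had a count at the Gfap peaks called in all libraries, against 1.89% (1.41 to 2.47) of 2751 in PDGFB-WT and 1.79% (1.54 to 2.07) of 9784 in PDGFB-NLS. Without thinning the shares were 2.73%, 2.07% and 2.60%, at median depths of 12126, 1360 and 2323 counts, in the order of depth. In microglia or macrophage-like barcodes, which should lack Gfap, the thinned shares were 0 of 509 (allowing up to 0.589%), 0.353% and 0.179%. In astrocyte-like barcodes they were 2.37% in Control, 4.18% in PDGFB-WT, and 2.86% and 6.83% in the 2 clusters of PDGFB-NLS. OPC-like barcodes stood at 1.71% in PDGFB-WT and 3.90% in PDGFB-NLS. For Scrg1 the thinned shares were 0.244%, 1.42% and 0.828% of all barcodes, and 2.88% and 3.34% in the OPC-like barcodes of the PDGFB libraries against 1.08%, and 0.651% and 0.589%, in astrocyte-like ones.

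The wider astrocyte program was read from lists that hold no member. Of 30 pan-astrocyte genes 24 were compared in PDGFB-WT, where 4 were 2-fold higher, against 2.32% of all genes, none 2-fold lower, against 0.354%, and the median was 0.48. In PDGFB-NLS 26 were compared, 1 was 2-fold higher, against 1.35% of all genes, and the median was 0.11. The minimum count touches the PDGFB-WT values, since an end low in Control was compared only where it was higher in that shallow library. Of all compared gene ends at 10 to 25 CPM, 12.2% were 2-fold higher in PDGFB-WT, with a median of 0.25. Nothing particular to the list is therefore read from its PDGFB-WT count and median, and the same limit holds for the lists below. Dio2, which activates thyroid hormone, stood highest in PDGFB-WT, at 1.76 (1.25 to 2.17), and Fabp7, a fatty acid carrier of radial glia, was next at 1.14 (0.77 to 1.48). Bcan, a brain proteoglycan, was lowest at -0.40 (-0.68 to -0.14), with the inhibitor Id3 at -0.26 (-0.56 to -0.08). In PDGFB-NLS the highest were Pla2g7 at 1.09 (0.60 to 1.44) and Fabp7 at 0.81 (0.54 to 1.06), and the lowest were the thyroid hormone transporter Slco1c1 at -0.60 (-0.90 to -0.35) and Htra1 at -0.36 (-0.49 to -0.13).

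The reactive gene lists were thinly covered. None of 11 pan-reactive genes could be compared in PDGFB-WT, and of 4 in PDGFB-NLS none was past 2-fold, with a median of -0.29. Cd44, the hyaluronan receptor, was highest at 0.12 (-0.30 to 0.47), Cxcl10 came next at -0.22 (-0.54 to 0.11), and the heat shock protein Hspb1 at -0.61 (-0.89 to -0.37) and the oncostatin receptor Osmr at -0.37 (-0.73 to -0.07) were lowest. Of 12 A1 genes, 4 and 8 were compared, with medians of -0.08 and -0.03 and none past 2-fold. Among them were H2-D1 at 0.17 (0.01 to 0.31) and Psmb8 at -0.33 (-0.65 to 0.01) in PDGFB-WT, and Fbln5 at 0.23 (-0.20 to 0.66) and Amigo2 at -0.27 (-0.52 to -0.02) in PDGFB-NLS. Of 12 A2 genes, 2 and 9 were compared. The bile acid transporter family gene Slc10a6 stood at 1.70 (1.23 to 2.15) in PDGFB-WT and 0.87 (0.46 to 1.22) in PDGFB-NLS, Cd14 at -0.35 (-0.67 to 0.09) and -0.08 (-0.26 to 0.18), and Cd109 at 0.90 (0.51 to 1.31) in PDGFB-NLS, where the median was 0.46.

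Among the other intermediate filaments, 6 of 14 were compared in PDGFB-WT with a median of 0.18 and 9 in PDGFB-NLS with a median of 0.08. The neuronal filament Ina was 2-fold higher in PDGFB-WT, at 2.25 (1.80 to 2.85), and the neuronal filament Nefm in PDGFB-NLS, at 1.39 (0.93 to 1.79). The linker Plec stood at 0.55 (0.09 to 0.99) and 0.93 (0.83 to 1.38). Nes, a filament of progenitors and reactive glia, was among the lowest in PDGFB-NLS, at -0.04 (-0.22 to 0.20), and the lamin Lmnb2 was lowest at -0.21 (-0.32 to -0.09). Synm and the lamin Lmnb1 were lowest in PDGFB-WT, at 0.06 (-0.21 to 0.32) and -0.03 (-0.23 to 0.17).

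Of the genes for glutamate, water and potassium handling, 10 of 17 were compared in PDGFB-WT and 12 in PDGFB-NLS, with medians of 0.06 and 0.03 and none past 2-fold. Kcnj10 (Kir4.1), the potassium channel of astrocytes, was lowest in both, at -0.68 (-0.95 to -0.49) and -0.84 (-0.99 to -0.72), from 94.5 CPM in Control to 52.8 and 52.4 CPM. The highest were the glutamate receptor Grm3 at 0.40 (0.10 to 0.73) in PDGFB-WT and the aquaglyceroporin Aqp9 at 0.55 (0.29 to 0.83) in PDGFB-NLS. No connexin, Gja1 included, could be compared in PDGFB-WT, and of 6 in PDGFB-NLS the median was 0.04, with Gjb2 highest at 0.19 (-0.18 to 0.56).

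Of 22 regulators of the JAK-STAT3, BMP, Notch and NFI pathways, 13 and 17 were compared and none was past 2-fold, with medians of 0.08 in PDGFB-WT and -0.08 in PDGFB-NLS. Sox9, which sets up the astrocyte lineage, was high in both, at 0.52 (0.23 to 0.87) and 0.27 (0.07 to 0.52). The cytokine Il6 stood at 0.48 (0.05 to 0.87) in PDGFB-WT and the BMP receptor Bmpr1b at 0.59 (0.25 to 0.96) in PDGFB-NLS. Lowest were Notch1 at -0.19 (-0.46 to 0.10) and Bmpr1a at -0.19 (-0.42 to 0.09) in PDGFB-WT, and the BMP effector Smad1 at -0.61 (-0.82 to -0.43) in PDGFB-NLS.

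Markers of other cell types were read beside the members. All 10 compared OPC markers were above the median in PDGFB-WT, with a median of 0.67, and 14 of 16 in PDGFB-NLS, with a median of 0.51. Neural progenitor markers had medians of 0.63 over 11 genes and 0.30 over 15. The minimum count favours ends that are high in the shallow PDGFB-WT library, and 10 of 18 OPC markers were compared there. All compared gene ends at 10 to 25 CPM had a median of 0.25 in PDGFB-WT. No shift of the OPC or neural progenitor markers is therefore read from their PDGFB-WT values. Microglia or macrophage markers had medians of -0.15 over 8 and -0.09 over 16, and oligodendrocyte markers -0.24 over 5 and -0.11 over 17. The other marker lists, for neurons, lymphocytes, endothelial, mural, ependymal and erythroid cells, had at most 11 compared genes each, with medians from -0.17 to 1.16 in PDGFB-WT and from -0.38 to 0.45 in PDGFB-NLS. Both ends of that PDGFB-WT range rest on 1 compared gene each, in the inhibitory neuron and erythroid lists. The part of all these marker lists in the members' ratios was not tested.

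Over 10722 genes compared in both, the 3 genes whose pair of ratios lay nearest to Gfap were the histone gene H3c4, at a distance of 0.12, the transcription factor Sox11 at 0.765 and the glutamate receptor subunit Grik2 at 1.04. H3c4 measured 7.76 CPM in Control, 51.7 CPM in PDGFB-WT and 44.7 CPM in PDGFB-NLS. Nearest to Scrg1 were H3c4 at 0.529, the neuronal transcription factor Myt1l at 0.958 and Sox11 at 1.02. These distances are between 2 ratios that share the Control library, and few genes lay that high, so they describe position only.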

How the data were processed

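The authors deposited 1 matrix of counts per library from 10x single-cell ATAC-seq of nuclei, with its peaks and barcodes. Per the file headers the peaks and counts were made with cellranger-atac 2.1.0, separately in each library, and per the submitters' processing notes with Cell Ranger 8 on mm10. The values are transposase cut sites per peak and barcode, and between 91.3% and 91.8% were even, so intervals used fragments.

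Barcodes under 200 counts were left out, gene positions came from the RefSeq table of GRCm38.p6, and overlapping peaks of the 3 libraries were merged. Member peaks were those within 10 kb of a gene, with those within 1000 bp of an end kept apart. Each compared gene had a peak and at least 100 counts in both libraries. Intervals are exact 95% Clopper-Pearson or Poisson intervals on fragments, and fragments are not independent nuclei, so they cover counting error only. There was 1 library per group, so a value is called only where it is past 2-fold.

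Barcodes were clustered in each library by latent semantic indexing (30 components, leaving out the first) and the Leiden method at resolution 0.6, without member peaks. A cluster was named where a marker list had a median log2 fold of at least 1.0, at least 3 of its markers among the top 10 genes and no fewer than any other list, a naming rule set after seeing the data. Doublets were not removed.

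The members and gene lists were chosen with earlier results of these data known. The text names all members, of each list the 2 highest and 2 lowest compared genes (in part), the 3 genes nearest to Gfap and to Scrg1, the member regions with extreme ratios and the genes that share an end region. One gene that this rule names is not reported here. The calculation was checked on simulated data. Alternatives covered the scale, centring, count unit, barcode and gene minimums, window sizes, peak choice, peak length and thinning. Tools were Python 3.11.15 with numpy 2.4.6, pandas 2.3.3, SciPy 1.17.1, scikit-learn 1.9.0, igraph 0.11.9, leidenalg 0.10.2 and matplotlib 3.10.9.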

Additional observations from a re-analysis of the deposited data

Results flagged for a closer look

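The other peaks of Slc1a3, those over 1000 bp from its ends, lay on opposite sides of the all-gene median in the PDGFB libraries. The log2 ratio to Control was 0.18 (0.06 to 0.31) in PDGFB-WT and -0.17 (-0.26 to -0.09) in PDGFB-NLS, on 189 CPM in Control, 181 CPM in PDGFB-WT and 174 CPM in PDGFB-NLS. Both levels were below Control, by -0.06 and -0.12 in log2 before centring, and the signs are opposite only relative to the all-gene medians of -0.24 and 0.04. It stands here because the centred ratios of the single libraries have opposite signs. The difference between the groups was not tested.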

How the results depend on the processing

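Of 137 alternatives for the 18 main results, 114 kept their direction and size, 16 moved and 7 reversed. Of 315 alternatives for 25 single gene ends, 294 kept theirs, 21 moved beyond their interval, and none of the 315 turned the sign of a value past 2-fold. The count past 2-fold in PDGFB-WT against Control was 3, and 1 with peaks near other genes left out. In PDGFB-NLS against Control it was 2, and 1 with ends of 500 bp, 0 with a minimum count of 300 and 1 with peaks near other genes left out. In PDGFB-NLS against PDGFB-WT it was 1, and 0 without centring, with counts capped, with equal weight per barcode, with ends of 500 bp and with regions called in all libraries only. The minimum of 300 and leaving out peaks near other genes compare fewer members by construction. With ends of 500 bp Gfap was not compared with Control, since the end peak called in Control lies over 500 bp outside the start. Elsewhere the cause was not tested.

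The median over the other peaks was near 0 and its sign was not stable. For PDGFB-WT it became -0.18 without centring and -0.033 with common regions. For PDGFB-NLS it became -0.034 with common regions and -0.085 per kb. For PDGFB-NLS against PDGFB-WT the main value was -0.06, and it became 0.22 without centring, 0.0020 with barcodes of at least 1000 counts, 0.017 with no minimum count, -0.30 with a flank of 5 kb and -0.34 per kb. Thinned to 500 counts, the share of barcodes at the Gfap end fell to 0.328% (Control), 1.07% (PDGFB-WT) and 0.998% (PDGFB-NLS), and at the Scrg1 end to 0.800% (PDGFB-WT) and 0.457% (PDGFB-NLS).

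Gfap ranged from 2.1 to 3.03 in PDGFB-WT and from 1.67 to 2.56 in PDGFB-NLS, and Scrg1 from 2.41 to 3.40 and from 1.37 to 2.37. The lowest values came per kb of peak length. Vim changed sign with equal weight per barcode, to -0.20 in PDGFB-WT and -0.40 in PDGFB-NLS, and Chil1 in PDGFB-NLS with peaks near other genes left out, to -0.08. In PDGFB-NLS Slc1a3 also turned, to -0.10 with counts capped, and Gja1, to 0.02 with wider gene ends. Centring on gene ends of 5 to 50 CPM, chosen after seeing the data, moved the all-gene median by 0.03 and 0.05 against Control. With a minimum count of 300 no member was compared in PDGFB-WT. No paired analysis was possible because each group has 1 library. PDGFB-WT had a median of 821 counts per barcode, and what depth contributed to the calls there was not tested.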
